A study of Mus musculus with 5 samples.

Results

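The subject is 10 genes of cell-cell adhesion, the cadherins Cdh1, Cdh2, Cdh3, Cdh6, Cdh11, Cdh13 and Cdh16 and the catenins Ctnna1, Ctnnb1 and Ctnnd1, of 20053 genes named on a mouse whole-genome array. The genes were chosen by name, and the group was proposed with the ratios of these same arrays already known. Their ratios are therefore a description, and no test of a single member is given. By name or RefSeq accession 19 probes belong to them, and GEO's platform annotation adds 1 probe each for Cdh2 and Ctnna1. Of these 21 probes, 18 were bright enough to be tested and 3 were not.

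Cells came from the kidney papilla, the inner tip of the medulla, of H2B-GFP mice 2 to 3 months old, and all 5 samples are titled as control papilla. The mice had received doxycycline before birth to load nuclei with the GFP-tagged histone, and the label was then chased. GFP+ cells, which kept the label, and GFP- cells, which showed none, were sorted from the same collagenase-dispersed papillae. Both populations carry the transgene and had the same pulse. The promoter that drives it, the number of animals per sort and the number of cells are not given in the sources used here. Each of 5 biological replicates is 1 array with 2 channels, labelled as GFP+ in Cy5 and GFP- in Cy3 with no swap of dyes. For a single probe, a difference between the dyes therefore cannot be told apart from one between the populations. In such sorted mixtures, fewer cells of a type and less RNA per cell cannot be told apart.

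Classical cadherins are calcium-dependent adhesion proteins that bind their like on the neighbouring cell. Inside the cell, p120-catenin (Ctnnd1) and beta-catenin (Ctnnb1) hold the cadherin tail, and alpha-catenin (Ctnna1) links beta-catenin to actin. Beta-catenin is also the transcriptional effector of Wnt signalling. In the kidney, E-cadherin (Cdh1) is typical of distal tubule and collecting duct, N-cadherin (Cdh2) and K-cadherin (Cdh6) are known from the proximal tubule and its precursors, and Ksp-cadherin (Cdh16) is a tubule cadherin almost limited to kidney. P-cadherin (Cdh3) belongs to several epithelia, OB-cadherin (Cdh11) to mesenchymal cells, and T-cadherin (Cdh13) is held by a lipid anchor and has no tail for catenins.

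Levels are given as multiples of the negative control probe of the same array and channel, and 3 multiples count as above background. They were not scaled between arrays, and the levels of different probes cannot be compared. Ratios are log2 of the second deposited intensity over the first. They were taken after an offset of 50 and a loess normalization of each array, unless called unnormalized. The second intensity is likely the GFP+ channel, since Agilent ratios are by convention Cy5 over Cy3, but which dye each column holds is not stated, and all signs turn if the order is the opposite. On the 5 arrays 57.7% to 75.3% of probes were above background in the GFP- channel and 59.4% to 72.5% in the GFP+ channel. Replicate 1 stood apart in the sign of its correlations. Its log2 ratios correlated with those of the other arrays at -0.154 to -0.0592 over genes, which are not independent replicates. Among replicates 2 to 5 the correlations were 0.0498 to 0.201, so these arrays also agreed little with one another. Its labelled direction was kept, and means are given with and without it.

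No member passed the test across the whole table. With limma on the 5 arrays, 0 of 10 members and 0 of 17425 genes, which is 0% of the table, had an adjusted p under 0.05. The lowest adjusted p was 0.825 for both. At an unadjusted p under 0.05 there were 2 members and 861 genes, or 4.94% of those tested, and nothing is read from the member count because these ratios were known when the group was proposed. A 2-fold or larger mean was found for 4 members (Cdh2 above 0, and Cdh3, Cdh6 and Ctnnb1 below) and for 25.9% of all genes. No member had one sign on all 5 arrays, against 7.62% of genes with 5 values. The median SD over the arrays was 2.07 for the members and 1.45 for all genes, with no matching for brightness. The median of the member means was -0.40, against -0.0029 for all genes tested.

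**Figure D1:**
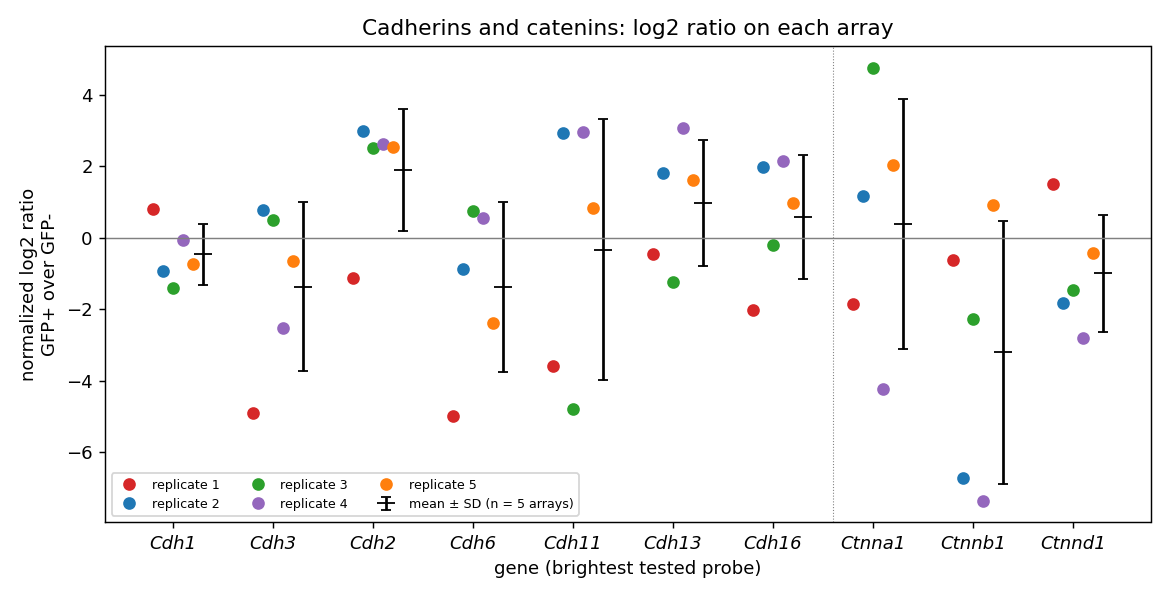
Normalized log2 ratio of GFP+ over GFP- (likely direction) on each of the 5 arrays for the brightest tested probe of each member, with the mean and SD over arrays in black. Cdh2 lies between 2.50 and 2.99 on replicates 2 to 5 and at -1.12 on replicate 1, while Cdh11, Ctnna1 and Ctnnb1 spread over more than 7 log2 units.

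Cdh2, which encodes N-cadherin, had the highest mean ratio of the 10 members by brightest probe. After the offset and loess, the ratio of its brightest probe was nearly level over replicates 2 to 5. In GFP+ cells its brightest probe (A_51_P262773) had levels of 5.52, 32.8, 385, 32.8 and 30.9 multiples on replicates 1 to 5. In GFP- cells the same probe had 24.1, 1.71, 86.4, 2.33 and 2.09 multiples. The GFP- channel was thus above background on replicates 1 and 3 alone, whereas the GFP+ channel was above it on all 5 arrays, and GFP+ was the brighter channel on every array but replicate 1.

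The log2 ratio of Cdh2 was -1.12, 2.99, 2.50, 2.62 and 2.55 on replicates 1 to 5, with a mean of 1.91 ± 1.70 (SD, n = 5). Without replicate 1 the mean was 2.67 ± 0.22 (SD, n = 4). The unnormalized ratios were -1.69, 4.14, 2.16, 3.61 and 3.55, so replicates 2 to 5 were less even before the offset and normalization. A pattern of ratios above 0 on replicates 2 to 5 and below 0 on replicate 1 was shared by 8.29% of genes. On the 3 arrays where GFP- cells lay below background the ratio depends on the offset, and its mean over the 5 arrays was 2.24 with an offset of 0 and 1.43 with an offset of 200.

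The other Cdh2 probes did not show this difference. A_52_P164578, listed under a cDNA clone, had ratios of 0.89, 0.35, 0.33, -0.37 and -2.94 on replicates 1 to 5 (-0.35 ± 1.52, SD, n = 5). Its levels were low, from 2.41 to 26.7 multiples in GFP- cells and from 3.64 to 7.51 in GFP+ cells. The remaining 2 Cdh2 probes, A_52_P322725 and the annotated A_51_P422113, never reached background in either channel. With the mean of both tested probes, the ratio of Cdh2 was 0.78.

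Cdh1, the E-cadherin of collecting duct epithelium, had the smallest spread of the members. Its single probe was above background in both channels of all 5 arrays. In GFP- cells it had 875, 4617, 2983, 212 and 82.0 multiples on replicates 1 to 5, and in GFP+ cells 1164, 2868, 934, 338 and 77.7. The log2 ratio was 0.81, -0.91, -1.41, -0.07 and -0.72, above 0 on replicate 1 and below 0 on the others. The mean was -0.46 ± 0.86 (SD, n = 5), and -0.78 ± 0.55 (SD, n = 4) without replicate 1. On replicate 4 the sign rests on the normalization, since the unnormalized ratio was 0.47 there.

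After loess, the brightest Cdh2 probe and the Cdh1 probe lay on opposite sides of 0 on all 5 arrays, with replicate 1 turned against the rest. Unnormalized, both were above 0 on replicate 4 (3.61 and 0.47), and the other tested Cdh2 probe had the sign of Cdh1 on replicates 1, 4 and 5. The ratio of Cdh2 minus that of Cdh1 was -1.93, 3.90, 3.91, 2.69 and 3.27 on replicates 1 to 5, with a mean of 2.37 ± 2.46 (SD, n = 5). Without replicate 1 it was 3.44 ± 0.59 (SD, n = 4), and with the mean of the tested probes of each gene it was 1.24 over the 5 arrays. The difference is a description, since both genes were members from the start.

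**Figure D2:**
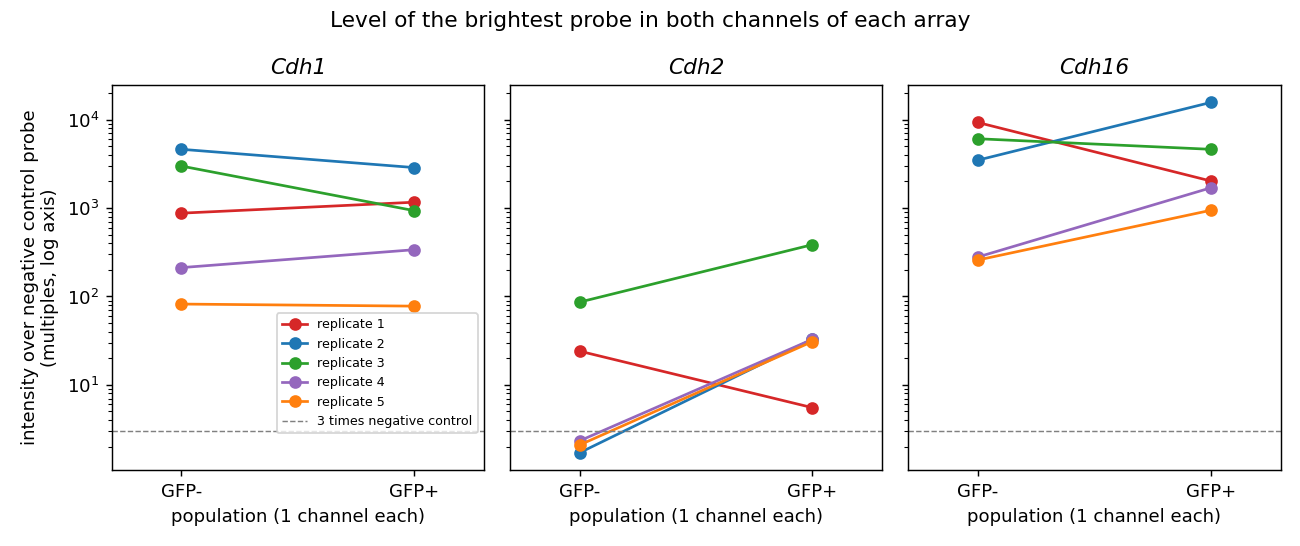
Level of the brightest probe of Cdh1, Cdh2 and Cdh16 in the GFP- and the GFP+ channel of each array, as multiples of the negative control probe on a log axis; lines join the channels of 1 array and the dashed line marks 3 multiples. For Cdh2 the lines climb towards GFP+ on replicates 2 to 5 and descend on replicate 1, and the GFP- points of replicates 2, 4 and 5 lie under the dashed line.

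Cdh16, the kidney tubule cadherin, was above background in both channels of every array. GFP- cells had 9279.7 multiples on replicate 1, 3479 on replicate 2, 6076 on replicate 3, and 279.5 and 258 on replicates 4 and 5. GFP+ cells had 2024, 15637, 4616, 1691 and 942. The ratio of its single probe was -2.03, 1.99, -0.19, 2.16 and 0.97, with a mean of 0.58 ± 1.73 (SD, n = 5), or 1.23 ± 1.09 (SD, n = 4) without replicate 1. Replicates 2, 4 and 5 were higher in GFP+ cells and replicates 1 and 3 were lower.

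Cdh3 and Cdh6, encoding P-cadherin and K-cadherin, were brightest by far in the GFP- cells of replicate 1. Cdh3 had 2313 multiples there, against 13.6 to 90.7 in GFP- cells of the other replicates and 17.6 to 47.5 in GFP+ cells of all 5. For Cdh6 the GFP- value of replicate 1 was 4047, against 8.20 to 112 in the other GFP- samples and 9.81 to 88.8 in GFP+ cells. The single Cdh3 probe had ratios of -4.91, 0.77, 0.51, -2.51 and -0.66 (-1.36 ± 2.37, SD, n = 5). The single Cdh6 probe had -4.98, -0.87, 0.76, 0.55 and -2.39 (-1.39 ± 2.38, SD, n = 5). Without replicate 1 these means shrank to -0.47 ± 1.49 and -0.49 ± 1.46 (SD, n = 4), so the 2-fold means of both genes rest on that array.

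Cdh11, the mesenchymal OB-cadherin, had large ratios in both directions. Its brightest probe (A_52_P683146) had 3496, 3.42, 5806, 97.2 and 279.8 multiples in GFP- cells and 215, 45.4, 169, 1241 and 933 in GFP+ cells. The ratios were -3.59, 2.92, -4.80, 2.96 and 0.84, with a mean of -0.33 ± 3.65 (SD, n = 5), or 0.48 ± 3.66 (SD, n = 4) without replicate 1. GFP- cells were the brighter side on replicates 1 and 3 and GFP+ cells on the other 3. A dimmer probe, A_51_P506204, had the same sign on 4 of 5 arrays but smaller ratios, from -1.50 to 0.43, and the remaining probe, A_52_P437795, never reached background.

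Cdh13, the lipid-anchored T-cadherin, had 17.7 to 117 multiples in GFP- and 30.1 to 219 in GFP+ cells with its brightest probe, A_51_P114826. The ratios were -0.45, 1.81, -1.23, 3.08 and 1.62 (0.97 ± 1.76, SD, n = 5), and without replicate 1 the mean was 1.32 ± 1.82 (SD, n = 4). As for Cdh16 and Cdh11, replicates 2, 4 and 5 lay above 0 and replicates 1 and 3 below. The second probe, A_52_P504883, listed under a cDNA clone, was near background (1.76 to 20.1 multiples) and had the opposite sign on 4 arrays, with a mean of -0.54 ± 0.93 (SD, n = 5).

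Among the catenins, Ctnnb1, encoding beta-catenin, had the lowest mean ratio of the 10 members by brightest probe, and its probes gave different answers. The brightest, A_51_P272046, had 2740, 4240, 1539, 14853 and 66.3 multiples in GFP- cells and 1472, 50.7, 258, 106 and 217 in GFP+ cells. Its ratio was -0.61, -6.70, -2.26, -7.35 and 0.93, with a mean of -3.20 ± 3.68 (SD, n = 5), or -3.84 ± 3.91 (SD, n = 4) without replicate 1. A second probe for the same RefSeq transcript, A_52_P424585, had -0.41, -0.60, 5.14, -0.63 and -0.04 (0.69 ± 2.50, SD, n = 5), and was below background in both channels of replicate 5. On replicate 2 its levels were 7625 and 5706 multiples in GFP- and GFP+ cells, where the brightest probe had a ratio of -6.70.

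The third Ctnnb1 probe, A_52_P472397, was near level, with ratios from -0.56 to 0.62 (0.13 ± 0.46, SD, n = 5) at 8.004 to 17.5 multiples in both populations. Averaged over the 3 probes the ratio of Ctnnb1 was -0.79, so the size of the brightest probe's mean was not shared by the gene's other probes. Cdh3 and Cdh6, with 1 probe each, had lower means than that (-1.36 and -1.39).

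Ctnna1, encoding alpha-catenin, had ratios of -1.85, 1.18, 4.76, -4.23 and 2.05 with its brightest probe, A_51_P324572 (0.38 ± 3.50, SD, n = 5; 0.94 ± 3.77, SD, n = 4, without replicate 1). GFP- levels ran from 20.01 multiples on replicate 2 to 10687 on replicate 1, and GFP+ levels from 58.7 to 2695 on the same arrays. The probe that the platform annotation adds, A_52_P21506, had -1.34, -0.57, 3.41, 0.76 and 1.95 (0.84 ± 1.91, SD, n = 5). Both probes were below 0 on replicate 1 and above 0 on replicates 3 and 5, and they differed in sign on replicates 2 and 4.

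Ctnnd1, encoding p120-catenin, which keeps cadherins at the surface, had the clearest disagreement between probes. The brightest, A_51_P349182, had 407, 135, 82.0, 182 and 265 multiples in GFP- cells and 819, 46.6, 22.8, 34.9 and 368 in GFP+ cells. Its ratio was 1.51, -1.82, -1.45, -2.79 and -0.43, above 0 on replicate 1 and below 0 on the others. The mean was -0.996 ± 1.64 (SD, n = 5), or -1.62 ± 0.98 (SD, n = 4) without replicate 1. On replicate 5 the sign rests on the normalization, since the unnormalized ratio was 0.14 there. The second probe, A_52_P184435, gave -0.33, 3.31, 4.81, 2.81 and 0.53 (2.23 ± 2.10, SD, n = 5), the opposite sign on each of the 5 arrays. Its mean was above the 1.91 of the brightest Cdh2 probe.

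The third Ctnnd1 probe, A_52_P653276, had -3.69, -1.63, -0.66, 0.08 and -1.96 (-1.57 ± 1.43, SD, n = 5) and was above background on 3 arrays in each channel. The mean of the 3 probes was -0.11. RefSeq gives this gene 2 windows upstream of a transcription start on the minus strand of mouse build GRCm38.p6. They are shown because the probes split within the gene; which start the transcripts read by each probe use was not tested. Capitals mark the CCAAT motif, searched as CCAAT and, for the other strand, ATTGG.
Ctnnd1 at chr2:84658978-84659227: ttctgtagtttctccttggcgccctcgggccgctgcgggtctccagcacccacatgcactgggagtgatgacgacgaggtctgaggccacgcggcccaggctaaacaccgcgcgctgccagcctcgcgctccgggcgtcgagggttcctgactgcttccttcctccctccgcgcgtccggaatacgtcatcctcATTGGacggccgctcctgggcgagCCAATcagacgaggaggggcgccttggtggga
Ctnnd1 at chr2:84650741-84650990: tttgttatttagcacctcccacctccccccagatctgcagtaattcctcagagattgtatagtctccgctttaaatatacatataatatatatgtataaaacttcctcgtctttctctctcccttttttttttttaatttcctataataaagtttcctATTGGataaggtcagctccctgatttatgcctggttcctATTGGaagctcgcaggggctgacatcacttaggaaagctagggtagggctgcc
The first window, the one farther upstream in the gene, had 66.8% G and C and 26 CpG pairs, and the second had 40% and 3. Each held 2 matches of the motif, between 56 and 32 bases before the start in the first and between 92 and 53 in the second. Of 32851 windows of this length in the RefSeq table, 33.8% held at least 1 match and 9.91% at least 2. These matches are letters in a sequence and do not show that a factor binds.

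**Figure D3:**
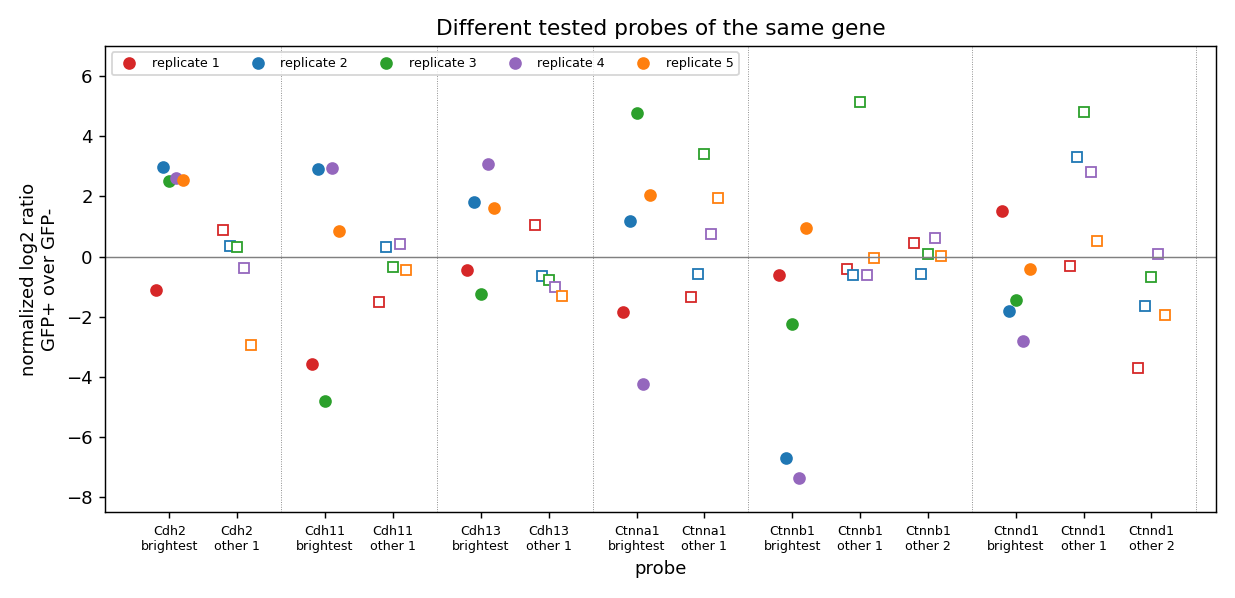
Normalized log2 ratio of GFP+ over GFP- on each array for every tested probe of the 6 members with more than 1, filled circles for the brightest probe and open squares for the others. The brightest and the next Ctnnd1 probe lie on opposite sides of 0 on all 5 arrays, and the 2 lowest Ctnnb1 points, -6.70 and -7.35, have no counterpart in its other probes.

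Counted over the 8 pairs of a brightest and another tested probe of one member, the sign matched in 18 of 40 comparisons on single arrays, or 45%. Over all genes it matched in 53.0% of 40045 such comparisons. Within a pair, the largest difference between probes on 1 array ran from 4.09 log2 units for Cdh13 to 7.96 for Ctnnb1. For Cdh2, Cdh13 and Ctnnb1 the other tested probes had means of the opposite sign to the brightest, and for Ctnnd1 1 of the other 2 did. For Cdh1, Cdh3, Cdh6 and Cdh16 there was no second probe to set beside it.

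After loess, 3 members had one sign on replicates 2 to 5 with their brightest probe, Cdh2 above 0 and Cdh1 and Ctnnd1 below. All 3 turned on replicate 1. Unnormalized, Cdh1 was above 0 on replicate 4 (0.47) and Ctnnd1 on replicate 5 (0.14). One sign on replicates 2 to 5 was found for 25.6% of genes, and a turn on replicate 1 as well for 17.9%. On replicate 1, 8 of 10 members lay below 0, all but Cdh1 and Ctnnd1, with a median of -1.48. Over all genes tested 52.9% lay above 0 on that array, with a median of 0.09. The member medians on replicates 2 to 5 were 0.98, -0.71, 0.24 and 0.89, against 0.08, 0.04, 0.07 and -0.0046 for all genes, so the member medians lay on both sides of 0.

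The 3 genes outside the group with ratios nearest to those of Cdh2, by root mean square difference over the 5 arrays, were Prl (0.391 log2 units), Efnb3 (0.397) and Adcy1 (0.428). Of 17353 genes, 75 lay within 1 log2 unit of Cdh2 by this measure. With 5 arrays and this many genes, such likeness is a description of the pattern.

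The other genes of the adhesion system were followed in 6 lists with 76 genes, of which 68 could be tested. Limma called 0 of them higher and 0 lower, 1 had an unadjusted p under 0.05, 36 had a mean above 0, 17 a mean of at least 2-fold and 2 one sign on all 5 arrays. For the other cadherins, 7 of 12 means were above 0 with a median of 0.26. Cdh5, the endothelial cadherin, had -0.42 ± 1.11, and Cdh4, R-cadherin, had 0.43 ± 0.89 (SD, n = 5). For each of them 1 of 2 tested probes had the sign of that mean, and the Cdh5 probe was above background on 3 arrays in each channel. For the other catenins and p120 relatives, 8 of 11 means were above 0 with a median of 0.34.

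Jup, encoding plakoglobin, the catenin of desmosomes, had a ratio of -1.65 ± 1.74, from -4.16 on replicate 1 to 0.18 on replicate 5, and -1.03 ± 1.19 (SD, n = 4) without replicate 1. Ctnnd2, a p120 relative known from neurons, had 0.29 ± 0.39 (SD, n = 5). Pkp4, a plakophilin relative of p120, swung from -8.23 on replicate 3 to 2.80 on replicate 1 (-1.61 ± 4.98, SD, n = 5). In the desmosome list the median was 0.38, with 6 of 9 means above 0. Dsp, which encodes desmoplakin, the link to keratin filaments, ranged from -4.89 on replicate 1 to 6.25 on replicate 2 (2.27 ± 5.01, SD, n = 5; 4.06 ± 3.49, SD, n = 4, without replicate 1), with 1 of 3 tested probes on the side of that mean. Dsg2, the desmosomal cadherin of simple epithelia, had 0.78 ± 1.28 (SD, n = 5).

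For nectins and actin linkers the median was -0.13, with 5 of 14 means above 0. Nectin2, an immunoglobulin-type adhesion molecule, had -0.32 ± 1.61, its partner Afdn (afadin) -0.52 ± 2.36 and Vcl (vinculin, which binds alpha-catenin under tension) 1.29 ± 1.39 (SD, n = 5). Vcl was above 0 on 4 of 5 arrays and at -0.56 on replicate 5. For cadherin turnover and shedding the median was -0.03 and 6 of 12 means were above 0, with the sheddase gene Adam10 at -0.69 ± 1.19 (SD, n = 5).

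Among the transcription regulators of cadherins the median was -0.09, and 4 of 10 means were above 0. Zeb1, a repressor of Cdh1, had ratios of -1.48, 1.89, 2.87, 1.22 and 2.77 on replicates 1 to 5, with a mean of 1.45 ± 1.77 (SD, n = 5), or 2.18 ± 0.78 (SD, n = 4) without replicate 1. Like Cdh2 it lay above 0 on replicates 2 to 5 and below 0 on replicate 1, as did 8.29% of genes. For Zeb1, GFP- cells were above background on 4 arrays and GFP+ cells on 5. Zeb2 had 0.80 ± 1.83 and Snai2, another repressor, -0.06 ± 0.79 (SD, n = 5), the latter above background on 2 arrays in GFP- and 3 in GFP+ cells. Snai2 had the same sign as Zeb1 on each array. Grhl2, an activator of Cdh1, had -0.12 ± 1.31 (SD, n = 5), with 1 of 3 tested probes on the side of that mean.

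**Figure D4:**
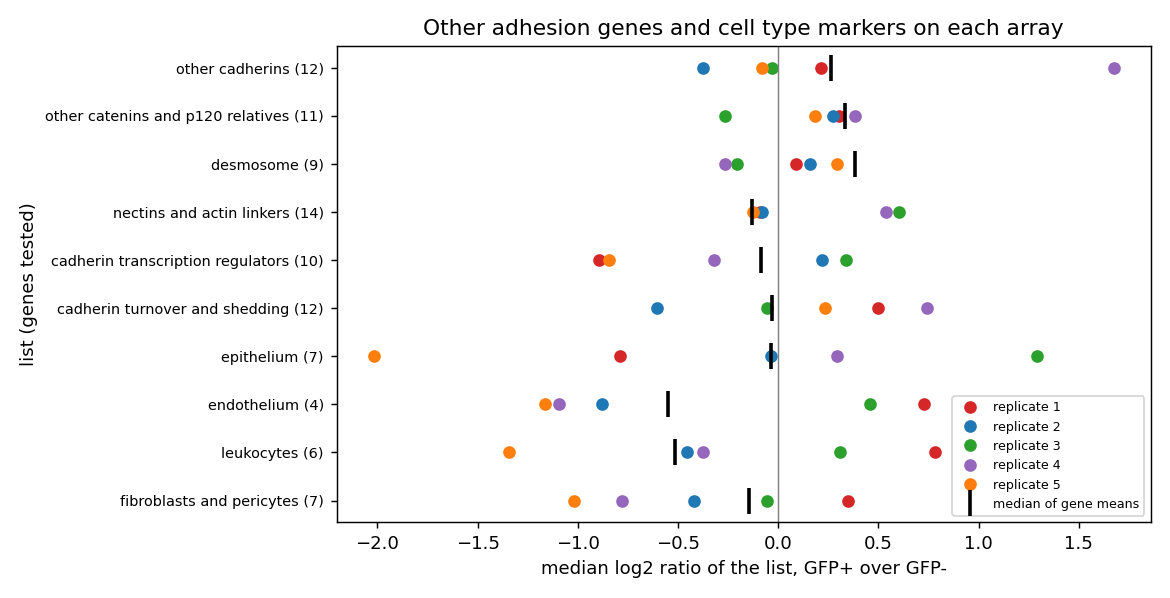
Median log2 ratio of GFP+ over GFP- of 6 lists of other adhesion genes and 4 lists of cell type markers on each array, with the median of the gene means as a black bar; the number of genes tested stands beside each name. The medians of the endothelial and leukocyte lists lie above 0 on replicates 1 and 3 and below 0 on replicates 2, 4 and 5.

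Markers of the cell types in the sort moved with the arrays. The 7 epithelial markers were above background on all arrays in both channels, and their summed level ran from 2433 to 43070 multiples in GFP- and from 1330 to 30816 in GFP+ cells. Their median ratios were -0.79, -0.03, 1.29, 0.29 and -2.02 on replicates 1 to 5, on both sides of 0. Of the 7, only Krt7, a keratin of simple epithelia, had one sign on all 5 arrays (-1.82 ± 0.24, SD, n = 5). It is named here after its values were seen, and 7.62% of all genes with 5 values had one sign as well. Means above 0 were found for 3 of the 7 markers, Cldn4 (2.08), Krt18 (0.62) and Cldn7 (0.36), and the median of the 7 means was -0.04. The 4 endothelial markers tested had medians of 0.73, -0.88, 0.46, -1.09 and -1.16 on replicates 1 to 5, and summed levels of 83.3 to 421 in GFP- and 66.0 to 108 in GFP+ cells. The 6 leukocyte markers had medians of 0.78, -0.45, 0.31, -0.37 and -1.34, and summed levels of 91.0 to 1904 and 108 to 142. The 7 fibroblast and pericyte markers had medians of 0.35, -0.42, -0.05, -0.78 and -1.02, and summed levels of 359 to 10471 and 351 to 4694. At least 3 of 4, 4 of 6 and 6 of 7 of these markers were above background in every channel. The endothelial and leukocyte medians had the opposite sign to the brightest probes of Cdh11, Cdh13 and Cdh16 on all 5 arrays. These members were named after their values were seen, and how many other genes share the pattern was not counted. Of the single markers, Pecam1, Cdh5, Cd74 and Coro1a had the signs of the medians on all 5 arrays. Pecam1 on replicate 3 (0.0041) and Cd74 on replicate 1 (0.0018) were close to 0. Emcn, Plvap, Ptprc, Cd52, Laptm5 and Tyrobp did not have these signs on all 5. The second Cdh13 probe had the sign of both medians on replicates 1, 2, 4 and 5, and the dimmer tested Cdh11 probe on replicate 5. The part of these cell types in those ratios was not tested.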

How the data were processed

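The analysis used 5 two-colour Agilent arrays of amplified cDNA (a global PCR protocol, per the labels), processed with Agilent Feature Extraction per the submitters' processing notes, which name no version. The deposited intensities of both channels are on a linear scale, 1 value per probe and array. The deposited log10 ratio equalled that of the second over the first intensity within 0.001 for 78.3% to 89.1% of probes, and the authors' series matrix repeats it except at 0 to 3 probes per array, with medians of -0.022 to 0.052 (log10); no centring is stated. The deposited p-value of each array was not used.

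An offset of 50 was added to the intensities, and no scanner background signal was used here. Loess with a span of 0.3 then normalized each array; 93 control probes got no weight, and 14 to 41 probes marked in the tables were left out. Of 41174 probes, 33479 had 1 gene symbol (817 through an accession), 45 several and 7650 none. Probes at 3 times the negative control in at least 1 channel on at least 3 arrays were tested, the brightest per gene, leaving 17425 genes. Log2 ratios were tested against 0 with limma 3.58.1 (R 4.3.3, eBayes, two-sided, Benjamini-Hochberg over all genes, threshold 0.05). The procedure was also run on simulated ratios with less noise than observed here. That run therefore does not show which differences could be detected in these data. The number of arrays limits the precision. The labels call the replicates biological without saying which animals each holds. The p-values set a mean ratio against the spread between these samples, which may be technical.

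The members, lists and alternatives were chosen with earlier results of these data known. Genes named are all members, 15 fixed genes of the lists and the 3 nearest to Cdh2. Alternatives were other offsets, normalizations, filters and probe summaries, channels fitted as separate samples, and each replicate left out.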

Additional observations from a re-analysis of the deposited data

Results flagged for a closer look

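Among 36 values screened for an array far from the other 4, 4 were found. For 3 of the 4 the array was replicate 1, and 2 of these rest on the same Cdh2 value, so the 4 are not independent. The Cdh2 and Cdh1 ratios were known when the group was proposed, so the count is a description and is not set against chance. The log2 ratio of Cdh2 was -1.12 on replicate 1, against 2.50 to 2.99 on the others. The ratio of Cdh2 minus that of Cdh1 was -1.93 there, against 2.69 to 3.91. Snai2 had -1.43 on replicate 1, against 0.14 to 0.61, but was above background on only 2 arrays in GFP- and 3 in GFP+ cells. The median of the other cadherins was 1.67 on replicate 4, against -0.37 to 0.21.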

How the results depend on the processing

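Limma called 0 genes and 0 members under all 13 alternatives. At an unadjusted p under 0.05 there were 549 to 1999 genes and 0 to 3 members, the highest counts of both without replicate 1. Of 129 member values under these alternatives, 4 changed sign: Cdh11 was 0.48 without replicate 1 and 0.79 without replicate 3, and Ctnna1 was -0.71 without replicate 3 and -0.03 without replicate 5. Cdh2 ranged from 0.78 (mean of probes) to 2.67 (without replicate 1), and could not be kept where both channels had to be above background on all arrays. Ctnnb1 ranged from -4.23 to -0.79 and Ctnnd1 from -1.62 to -0.11. The difference between Cdh2 and Cdh1 ranged from 1.24 to 3.44, and from 1.98 to 3.44 with a replicate left out. With no replicate block, the channels fitted as separate samples, 0 genes and 0 members were called, and 599 genes had an unadjusted p under 0.05. Signal near background limits Cdh2 in GFP- cells and the dim probes of Cdh11 and Cdh13. The direction of all ratios is likely, not stated.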

Other observations

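Levels of the members differed widely between arrays within one population, on a scale that is not normalized between arrays. In GFP- cells, the highest over the lowest of the 5 levels had a median of 169.8 for the 9 members above background on all arrays, from 4.97 for Ctnnd1 to 1699 for Cdh11, against a median of 7.33 over 11486 genes. In GFP+ cells it had a median of 28.2 for all 10 members, from 2.70 for Cdh3 to 69.8 for Cdh2, against 6.09 over 13294 genes. Members and all genes were not matched for brightness in this comparison. In GFP- cells, the brightest Ctnnb1 probe ran from 66.3 to 14853 multiples, and the dimmer A_52_P472397 of the same gene from 8.004 to 17.0. The ratios of highest over lowest level are given as values, and their cause was not tested.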
